A study of Mus musculus with 8 samples.

Results

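The genes described here mark brain endothelial cells and the mural cells around them, the pericytes of capillaries and the smooth muscle cells of larger vessels. They were taken from a list of gene names matched to the count table by Ensembl identifier, and all 34 were found among its 55890 genes. By role, 23 mark endothelium, 1 (*Plvap*) marks fenestrated endothelium, 6 were placed with pericytes and 3 mark vascular smooth muscle. Of the 6, *Notch3* is a receptor of mural cells and not of pericytes alone. The remaining listed gene, *Cspg5*, encodes neuroglycan C, a proteoglycan of neurons and glia, and is not a mural marker. The pericyte proteoglycan NG2 is encoded by another gene, *Cspg4*.

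The hypothalami of 16 female mice, 16 weeks old, gave 8 pools of RNA with 2 animals in each, 4 from POMC-C451Af/f mice and 4 from controls. Mice called POMC-C451Af/f combine a POMC-Cre transgene with a floxed allele of *Esr1*, the gene of estrogen receptor α, from which Cre produces the C451A form of the receptor. The sample labels call the controls wildtype, whereas the study's methods describe littermates with the floxed C451Af/f allele, and neither source gives them Cre. Cre is driven by the *Pomc* promoter, so the intended site of the mutation is POMC-expressing neurons and not vascular cells, and counts per gene do not tell the mutated transcript from the intact one. The mice were gonad-intact, and at this age the paper reports higher serum estradiol, testosterone and progesterone in POMC-C451Af/f females than in controls. Genotype and circulating sex steroids therefore cannot be told apart in these pools. Animals of one genotype were paired at random, every RNA sample had an integrity number over 8, and poly(A) RNA was made into stranded libraries. Estimated counts summed to 36095253 to 40498166 per POMC-C451Af/f pool and to 37841365 to 48942116 per control pool.

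Endothelial cells line every vessel, and in most of the brain they form the blood–brain barrier, in which tight junctions close the gaps between cells and transporters carry nutrients in and foreign compounds out. Pericytes share the basement membrane of the capillary endothelium and help to maintain this barrier, while smooth muscle sets the width of arterioles. At the base of the hypothalamus lies the median eminence, a part of it in which capillaries are fenestrated and let hormones pass between blood and tissue.

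Some pools stood apart in genes of other cells, and these are given first. Levels are in CPM, counts scaled to a common library size with TMM factors, and the values of 4 pools follow their replicate numbers, 1 to 4. The 9 leptomeningeal fibroblast genes, of which *Igf2* was the most abundant and none was under 1 CPM in every pool, summed to 115, 225, 92.7 and 93.0 CPM in the POMC-C451Af/f pools and to 212, 117, 241 and 81.0 CPM in the controls. The sum was thus high in 3 pools, POMC-C451Af/f replicate 2 and control replicates 1 and 3. The 9 pituitary genes, led by *Prl* and with *Ghrhr* under 1 CPM in every pool, summed to 245, 53.6, 34.6 and 212 CPM in the POMC-C451Af/f pools and to 1474, 115, 43.9 and 53.4 CPM in the controls. Control replicate 1 was far above the other pools in this sum. *Slc6a3*, the dopamine transporter gene, listed here with midbrain dopamine genes, was at 36.4, 12.3, 90.0 and 53.8 CPM in the POMC-C451Af/f pools and 6.90, 4.24, 15.8 and 26.4 CPM in the controls. POMC-C451Af/f replicates 3 and 4 had its highest values. In RNA of whole tissue, fewer cells of a type and less RNA per cell cannot be told apart, and this holds for each vascular gene as well.

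The filter on low counts kept all 34 genes. They were detected in every pool, the lowest value being 3.06 CPM for *Kcnj8*, so the markers of endothelium, pericytes and smooth muscle were present in all 8 libraries. In edgeR's quasi-likelihood test over 18637 genes, 0 of the 34 genes were called between the genotypes at a Benjamini-Hochberg adjusted p (FDR) of at most 0.05 with an absolute log2 fold change over 0.5, beside 4 of all genes tested (0.0215%), *Efr3b*, *Myo7a*, *Mrpl48-ps* and *Gm44675*. DESeq2 also called 0 of the 34, beside 13 of 22177 genes (0.0586%). At an unadjusted p under 0.05, edgeR gave 3 of the 34 genes, *Tek*, *Eng* and *Notch3*, beside 5.10% of all genes, and DESeq2 gave 5, the same 3 together with *Slco1c1* and *Vwf*, beside 4.27% of the genes kept by the filter. All 3 had the higher mean in POMC-C451Af/f pools, a direction that 2.70% of all genes showed at this p, and 0 were lower, which 2.39% of all genes were. The 4 POMC-C451Af/f values lay entirely above or below the 4 control values in 0 of the 34 genes, beside 2.78% of all genes. The smallest adjusted p of the 34 was 0.878 in edgeR's quasi-likelihood test, and a p that misses the threshold does not show that the levels were equal.

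Among the 34 genes, 18 had a log2 fold change (POMC-C451Af/f over control) above 0 and 16 below 0, with a median of 0.00 and a range from −0.26 to 0.24. Over all tested genes, 50.4% were above 0 and the median was 0.00. With total counts in place of TMM, *Ly6a* and *Abcc9* moved below 0, to −0.006 and −0.002. The standard errors of these log2 fold changes had a median of 0.0779, and those of all tested genes 0.0745. The endothelial genes had a median of 0.04 with 14 of 23 above 0, the pericyte genes a median of −0.02 with 2 of 6 above 0, and the smooth muscle genes a median of 0.06 with 2 of 3 above 0. The endothelial median was −0.004 without control replicate 4. The pericyte median was 0.012 without control replicate 2 and −0.061 without control replicate 4. For smooth muscle, the median was −0.252 without POMC-C451Af/f replicate 2, −0.034 without control replicate 4 and −0.011 with the replicate number as a block. It was 0.211 without POMC-C451Af/f replicate 1, the highest with single pools left out.

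**Figure D1:**
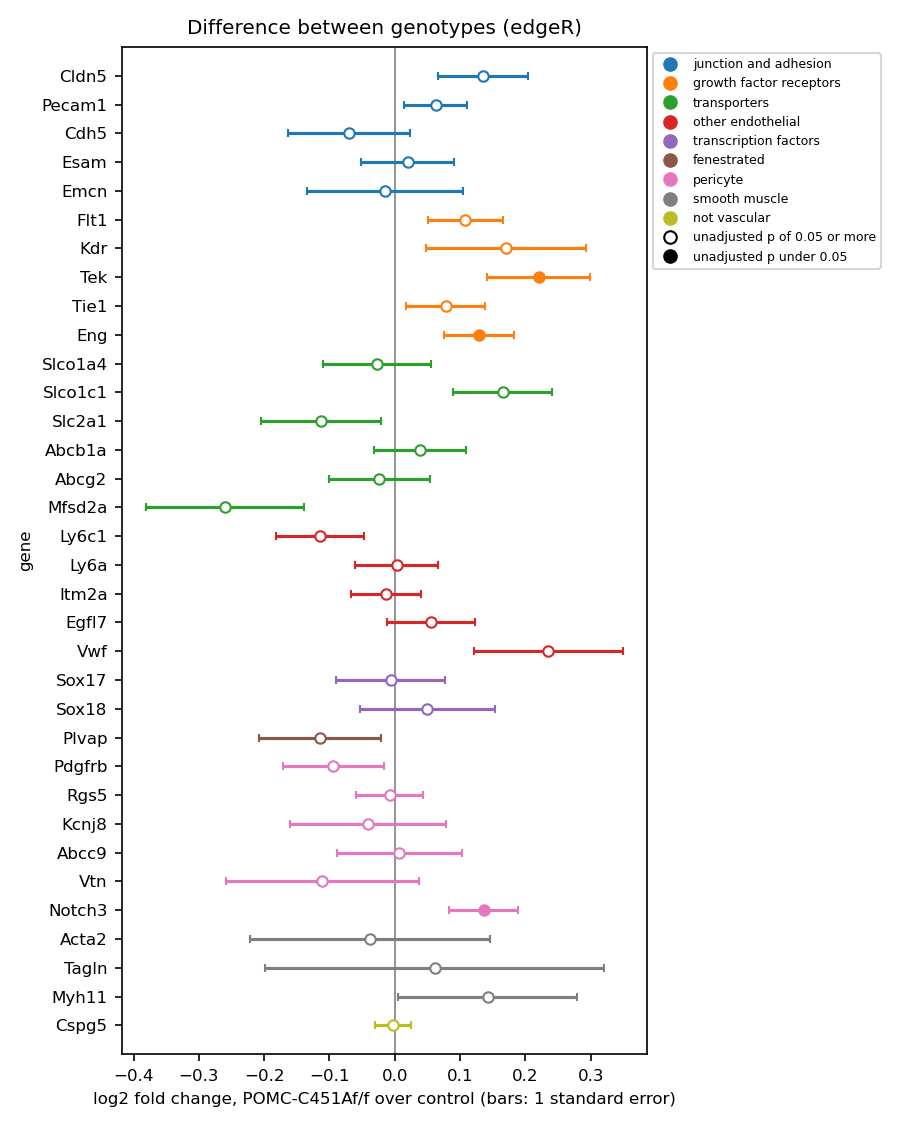
Log2 fold change of each of the 34 genes, POMC-C451Af/f over control, with bars of 1 standard error from edgeR, colored by role; filled points have an unadjusted p under 0.05. The filled points are *Tek* at 0.22, *Eng* at 0.13 and *Notch3* at 0.14, and the widest bars are those of the smooth muscle genes *Tagln* and *Acta2*.

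Summed over the 23 endothelial genes, the level was 676, 752, 732 and 691 CPM in the POMC-C451Af/f pools and 696, 730, 747 and 672 CPM in the controls. The pericyte genes summed to 201, 234, 220 and 216 CPM against 226, 225, 237 and 197 CPM in the controls, and the smooth muscle genes to 25.1, 46.1, 29.0 and 30.2 CPM against 34.4, 31.2, 34.8 and 24.9 CPM. The genotypes overlapped in all 3 sums, and control replicate 4 had the lowest of each. That pool had the lowest value of 14 of the 34 genes, 10 of them endothelial, and the highest of 0. POMC-C451Af/f replicate 2 had the highest value of 9 genes, the 3 smooth muscle genes included, and the lowest of 0. The shares of all genes with an extreme value in these pools were not computed. The counts thus do not show that either pool was unusual in vascular genes. Leaving out POMC-C451Af/f replicate 2 gave 7 of the 34 genes at an unadjusted p under 0.05 in place of 3, and 9.38% of all genes in place of 5.10%. These 7 were *Cldn5*, *Tek*, *Eng*, *Slco1c1*, *Notch3*, *Mfsd2a* and *Ly6c1*, the last 2 with log2 fold changes below 0. Without POMC-C451Af/f replicate 3, replicate 4 or control replicate 1, the count was 2 each time, beside 3.38%, 4.34% and 3.37% of all genes.

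The spread within a genotype differed by role. Its median coefficient of variation was 9.08% over the 34 genes and 7.41% over all tested genes. It was 8.28% for the endothelial, 9.69% for the pericyte and 23.6% for the smooth muscle genes, and it ran from 1.72% for *Cspg5* to 35.7% for *Tagln*. In *Tagln*, POMC-C451Af/f replicate 2 was at 11.4 CPM and the other POMC-C451Af/f pools were at 4.54 to 5.90 CPM.

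**Figure D2:**
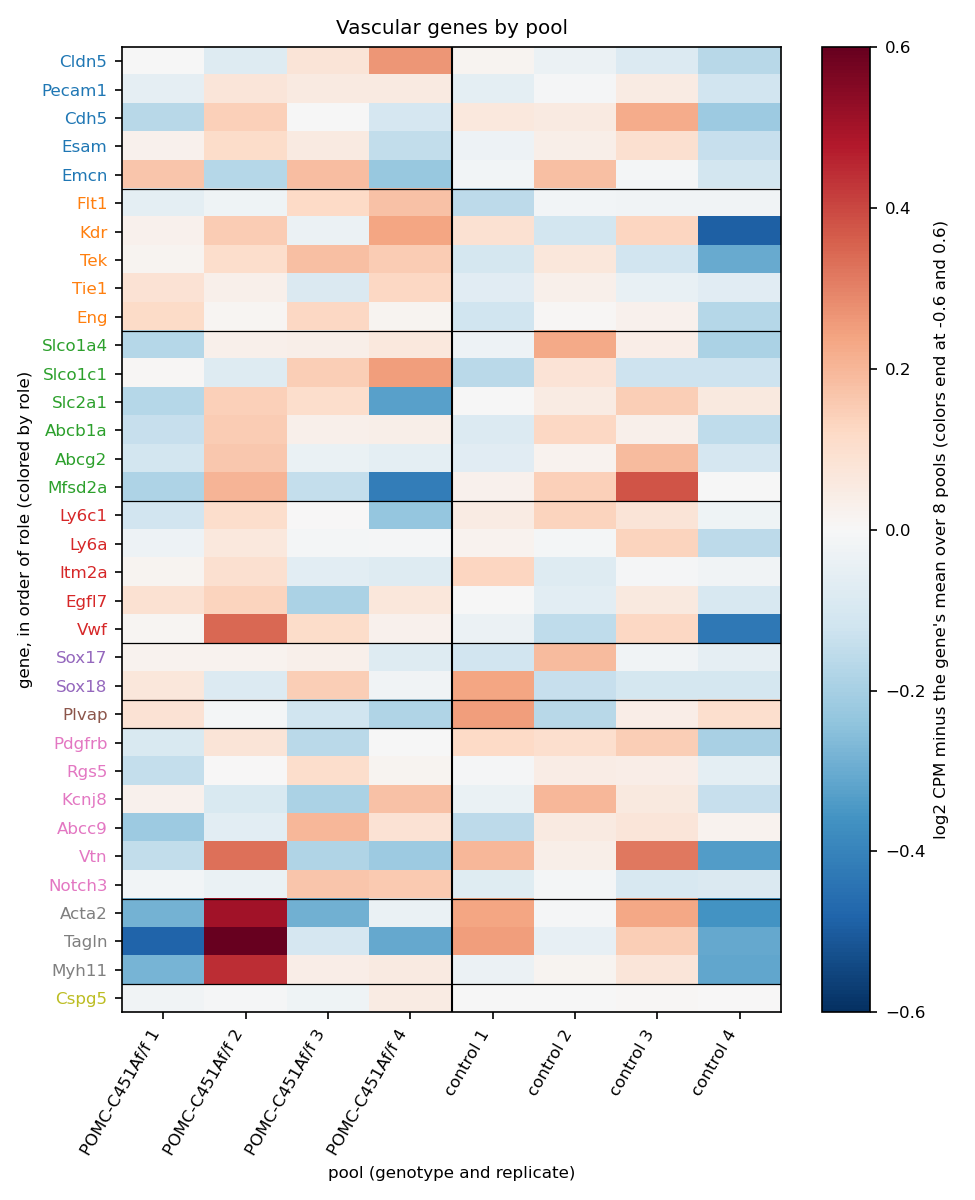
Log2 CPM of the 34 genes in each of the 8 pools, minus the mean of the gene over the pools, with genes in order of role and a line between the genotypes. The column of POMC-C451Af/f replicate 2 is reddest at the smooth muscle genes. That of control replicate 4 holds the lowest value of 14 genes, and the share over all genes was not computed.

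The promoters of 22 of the 34 genes were matched in a RefSeq table on GRCm38.p6, as windows of 300 bases from 250 before to 50 after the start of the gene. The other 12 were *Pecam1*, *Cdh5*, *Esam*, *Ly6a*, *Vwf*, *Sox17*, *Sox18*, *Plvap*, *Pdgfrb*, *Tagln*, *Myh11* and *Cspg5*. Windows were searched on both strands for GGAA, the core of sites bound by ETS factors, and GGGCGG, the GC box. The 22 genes had 27 windows, and a gene is counted where any of its windows matches, as for all genes. GGAA was in the windows of 19 of 22 genes, all but *Slc2a1*, *Cldn5* and *Notch3*, and of 96.5% of all 27025 genes. The GC box was in 9 of 22 and in 38.2% of all genes, TATAAA, the TATA box, in 6 of 22 and in 15.7%, and GGTCA, a half-site of the estrogen response element, in 12 of 22 and in 43.6%. The full estrogen response element was in 0 of 22 genes and 0.0740% of all, and the CArG box of smooth muscle genes in 0 of 22 and 1.81%, which says only that these letters are not in these windows. Windows are printed for the 3 genes with an unadjusted p under 0.05 and for *Cldn5*, the main claudin of the barrier. They lie at chr4:94739039-94739338 on the plus strand (*Tek*), chr2:32646345-32646644 on the plus strand (*Eng*), chr17:32166841-32167140 on the minus strand (*Notch3*) and chr16:18776597-18776896 on the plus strand (*Cldn5*). Capitals mark GGAA or its reverse complement TTCC in *Tek*, with 2 matches, and *Eng*, with 4, and the GC box or its reverse complement CCGCCC in *Notch3*, with 4, and *Cldn5*, with 1.
Tek: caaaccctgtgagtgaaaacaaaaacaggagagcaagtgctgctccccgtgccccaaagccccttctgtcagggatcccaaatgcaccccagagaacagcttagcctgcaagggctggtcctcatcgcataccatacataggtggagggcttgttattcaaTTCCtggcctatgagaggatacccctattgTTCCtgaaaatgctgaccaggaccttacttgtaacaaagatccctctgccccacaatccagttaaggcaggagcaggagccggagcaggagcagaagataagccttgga
Eng: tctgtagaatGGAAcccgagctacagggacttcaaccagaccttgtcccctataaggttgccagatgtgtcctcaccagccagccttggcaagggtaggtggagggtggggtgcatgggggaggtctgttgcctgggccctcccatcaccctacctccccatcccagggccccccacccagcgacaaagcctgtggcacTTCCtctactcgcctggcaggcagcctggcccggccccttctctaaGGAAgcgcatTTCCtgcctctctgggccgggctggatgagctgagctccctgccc
Notch3: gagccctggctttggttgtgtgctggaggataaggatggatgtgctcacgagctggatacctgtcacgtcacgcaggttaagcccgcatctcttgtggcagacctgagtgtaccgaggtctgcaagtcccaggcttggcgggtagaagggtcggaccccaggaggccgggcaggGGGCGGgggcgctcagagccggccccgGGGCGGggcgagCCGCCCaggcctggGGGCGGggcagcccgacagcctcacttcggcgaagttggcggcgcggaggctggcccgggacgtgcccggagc
Cldn5: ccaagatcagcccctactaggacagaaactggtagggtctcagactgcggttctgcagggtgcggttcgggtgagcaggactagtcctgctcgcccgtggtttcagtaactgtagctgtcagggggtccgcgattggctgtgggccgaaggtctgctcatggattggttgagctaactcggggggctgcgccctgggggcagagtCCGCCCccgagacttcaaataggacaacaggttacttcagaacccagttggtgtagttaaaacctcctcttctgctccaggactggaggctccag

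Of the junction and adhesion genes, *Cldn5* (ENSMUSG00000041378.3) encodes the claudin that seals the tight junctions of the barrier. It was at 33.0, 31.3, 34.8 and 39.6 CPM in the POMC-C451Af/f pools and 33.4, 32.2, 31.2 and 29.4 CPM in the controls. POMC-C451Af/f replicate 4 was the highest and control replicate 4 the lowest, with the other 6 pools interleaved. The means were 34.7 ± 3.58 and 31.5 ± 1.68 CPM (SD, n = 4 pools each). The log2 fold change was 0.13 ± 0.0688 (SE), with an unadjusted p of 0.0770 and an adjusted p of 0.878 in edgeR, and with single pools left out it ran from 0.065, without POMC-C451Af/f replicate 4, to 0.178, without replicate 2. The 2 highest values were those of POMC-C451Af/f replicates 3 and 4, the pools highest in *Slc6a3*. *Pecam1*, an adhesion molecule of all endothelium, ranged from 19.4 to 22.0 CPM over the pools, with a log2 fold change of 0.06. *Cdh5*, the cadherin of endothelial adherens junctions, ranged from 14.1 to 19.1 CPM with a log2 fold change of −0.07, which was −0.146 without control replicate 4 and −0.002 without control replicate 3. For *Esam*, another endothelial adhesion molecule, and *Emcn*, a sialomucin of capillaries and veins, the log2 fold changes were 0.02 and −0.01.

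The endothelial growth factor receptors were the role in which all 5 genes had a log2 fold change above 0, also with total counts or DESeq2's size factors, with a median of 0.13. *Pdgfrb*, a growth factor receptor placed with the pericyte genes, had a log2 fold change of −0.09. *Tek* (ENSMUSG00000006386.16), the receptor of the angiopoietins, was at 13.0, 13.8, 14.6 and 14.3 CPM in the POMC-C451Af/f pools and at 11.96, 13.5, 11.9 and 10.4 CPM in the controls. Only control replicate 2 reached into the range of the POMC-C451Af/f pools, and control replicate 4 was the lowest. The means were 13.9 ± 0.690 and 11.9 ± 1.24 CPM (SD, n = 4 pools each), and the log2 fold change was 0.22 ± 0.0783 (SE), with an unadjusted p of 0.0176 and an adjusted p of 0.878 in edgeR. Leaving out 1 pool at a time gave unadjusted p-values between 0.00337 and 0.0476 in edgeR. With POMC-C451Af/f replicates 3 and 4 both left out, a choice made after seeing the data, the unadjusted p in edgeR was above 0.05. These pools held the highest values of *Tek*, so a smaller difference follows from leaving them out.

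*Eng* (ENSMUSG00000026814.17), a co-receptor for ligands of the TGF-β family, was at 27.7, 25.8, 27.9 and 25.9 CPM in the POMC-C451Af/f pools and 23.5, 25.7, 26.0 and 22.7 CPM in the controls. Control replicates 1, 2 and 4 were below all POMC-C451Af/f pools, replicate 2 by little, while control replicate 3 was above 2 of them. The means were 26.8 ± 1.14 and 24.5 ± 1.62 CPM (SD, n = 4 pools each). The log2 fold change was 0.13 ± 0.0532 (SE), with an unadjusted p of 0.0342 and an adjusted p of 0.878 in edgeR, and the unadjusted p was between 0.0881 and 0.0996 without POMC-C451Af/f replicate 1 or 3 or control replicate 1 or 4. Of the vascular endothelial growth factor receptors, *Flt1* ranged from 73.9 to 93.2 CPM with a log2 fold change of 0.11, and *Kdr* from 10.2 to 17.0 CPM with a log2 fold change of 0.17 that was 0.055 without control replicate 4 and 0.245 without control replicate 3. *Tie1*, the orphan partner of the angiopoietin receptor, ranged from 12.2 to 14.1 CPM with a log2 fold change of 0.08.

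**Figure D3:**
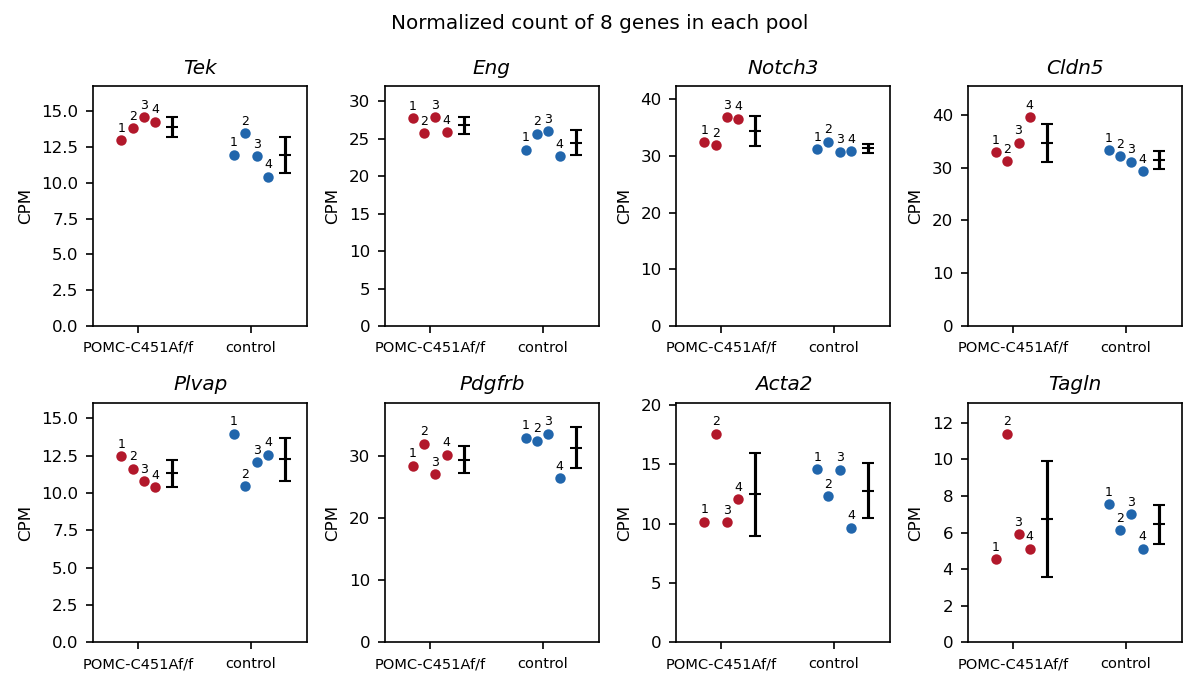
CPM of 8 genes in each pool, with the replicate number at each point and the mean with its SD at the side, for 4 POMC-C451Af/f and 4 control pools; each axis starts at 0. *Tek* lies between 13.0 and 14.6 CPM in POMC-C451Af/f pools and between 10.4 and 13.5 CPM in controls, and in *Acta2* and *Tagln* POMC-C451Af/f replicate 2 is the highest point.

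Among the barrier transporters, *Slc2a1* (ENSMUSG00000028645.12), which encodes the glucose transporter GLUT1, was at 133, 165, 161 and 119.5 CPM in the POMC-C451Af/f pools and at 149, 155, 166 and 156 CPM in the controls. POMC-C451Af/f replicates 1 and 4 were below all controls, and replicates 2 and 3 lay within the upper part of their range. The means were 145 ± 22.1 and 156 ± 6.86 CPM (SD, n = 4 pools each), and the log2 fold change was −0.11 ± 0.0911 (SE), with an unadjusted p of 0.243 and an adjusted p of 0.886 in edgeR. Without POMC-C451Af/f replicate 4 it was −0.032, and without replicate 2 it was −0.186 (unadjusted p = 0.0557 in edgeR).

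*Mfsd2a*, the carrier of lysophosphatidylcholine lipids across the barrier, had the lowest log2 fold change of the 34 genes, −0.26 with a standard error of 0.121. Its values were 39.8, 52.1, 40.9 and 33.9 CPM in POMC-C451Af/f pools and 45.9, 49.9, 58.6 and 45.1 CPM in controls, so that 3 POMC-C451Af/f pools were below all controls and replicate 2 was above 3 of them. The unadjusted p was 0.0552 in edgeR and 0.00258 without POMC-C451Af/f replicate 2. *Slco1c1*, a carrier of thyroxine, had a log2 fold change of 0.17, and its highest values, 37.7 and 40.6 CPM, were those of POMC-C451Af/f replicates 3 and 4. The organic anion carrier *Slco1a4* and the efflux pumps *Abcb1a* and *Abcg2* had log2 fold changes of −0.03, 0.04 and −0.02, and each changed sign when single pools were left out. Transporters thus had 2 of 6 genes above 0, *Slco1c1* and *Abcb1a*, and a median of −0.03, which ran from −0.076 to 0.015 with single pools left out.

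The other endothelial surface and secreted genes had log2 fold changes between −0.11 and 0.24. *Vwf*, the von Willebrand factor of endothelial storage granules, ranged from 11.04 CPM in control replicate 4 to 18.9 CPM in POMC-C451Af/f replicate 2. It had the highest log2 fold change of the 34 genes, 0.24 with a standard error of 0.114 (unadjusted p = 0.0639 in edgeR), which ran from 0.143 to 0.324 with single pools left out. *Ly6c1*, a surface protein of brain endothelium anchored by a lipid, had a log2 fold change of −0.11, and *Egfl7*, a protein secreted by endothelium, one of 0.05 that ran from 0.016 to 0.120 with single pools left out. For *Ly6a* and *Itm2a* the values were 0.003 and −0.01, each changing sign between alternatives. The transcription factors *Sox17* and *Sox18*, which act in vessel growth and arterial identity, ranged from 7.05 to 8.71 and from 6.01 to 7.79 CPM, with log2 fold changes of −0.01 and 0.05, the latter running from 0.008 to 0.145 with single pools left out.

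Fenestrated endothelium was represented by *Plvap* (ENSMUSG00000034845.7), which encodes the protein of the diaphragms that span fenestrae and is low in endothelium with a barrier. It was at 12.5, 11.6, 10.8 and 10.4 CPM in the POMC-C451Af/f pools and at 13.97, 10.5, 12.1 and 12.6 CPM in the controls. Control replicate 1 had the highest value and the genotypes overlapped. The means were 11.3 ± 0.926 and 12.3 ± 1.45 CPM (SD, n = 4 pools each), and the log2 fold change was −0.11 ± 0.0933 (SE), with an unadjusted p of 0.249 and an adjusted p of 0.888 in edgeR. It was −0.047 without control replicate 1, the pool in which the pituitary genes summed to 1474 CPM, and −0.185 without control replicate 2 (unadjusted p = 0.0549 in edgeR). The part of pituitary RNA in the level of *Plvap* was not tested.

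Among the pericyte genes, *Rgs5* (ENSMUSG00000026678.11), a regulator of G protein signaling, was at 76.1, 84.3, 90.4 and 84.9 CPM in the POMC-C451Af/f pools and 83.7, 86.8, 86.3 and 80.6 CPM in the controls. The lowest and the highest value were both of POMC-C451Af/f pools, replicates 1 and 3, so the controls lay inside their range. The means were 83.9 ± 5.87 and 84.4 ± 2.83 CPM (SD, n = 4 pools each). The log2 fold change was −0.01 ± 0.0511 (SE), with an unadjusted p of 0.883 and an adjusted p of 0.990 in edgeR, and its sign changed when single pools were left out, between −0.046 and 0.034.

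*Pdgfrb* (ENSMUSG00000024620.12), the receptor through which endothelial PDGF-B recruits pericytes, was at 28.5, 32.0, 27.1 and 30.2 CPM in POMC-C451Af/f pools and 33.0, 32.5, 33.6 and 26.5 CPM in controls. Control replicates 1 to 3 were above all POMC-C451Af/f pools and control replicate 4 was below all of them. The means were 29.4 ± 2.15 and 31.4 ± 3.32 CPM (SD, n = 4 pools each). The log2 fold change was −0.09 ± 0.0773 (SE), with an unadjusted p of 0.253 and an adjusted p of 0.888 in edgeR, and −0.167 with an unadjusted p of 0.0158 without control replicate 4.

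*Notch3* (ENSMUSG00000038146.9), a Notch receptor of mural cells, was at 32.4, 32.0, 36.8 and 36.6 CPM in the POMC-C451Af/f pools and at 31.2, 32.5, 30.8 and 30.9 CPM in the controls. POMC-C451Af/f replicates 3 and 4 were above the other 6 pools, which lay together between 30.8 and 32.5 CPM. The means were 34.5 ± 2.62 and 31.4 ± 0.804 CPM (SD, n = 4 pools each), and the log2 fold change was 0.14 ± 0.0524 (SE), with an unadjusted p of 0.0259 and an adjusted p of 0.878 in edgeR. The unadjusted p was 0.0778 without POMC-C451Af/f replicate 3, 0.0736 without replicate 4, and 0.0505, 0.0631 and 0.0549 without control replicates 1, 3 and 4. *Kcnj8* and *Abcc9*, the subunits of the potassium channel of pericytes that ATP closes, ranged from 3.06 to 4.01 and from 9.06 to 12.1 CPM, with log2 fold changes of −0.04 and 0.01 whose signs changed when single pools were left out. *Vtn*, the vitronectin gene, was at 71.9 CPM in POMC-C451Af/f replicate 2 and at 49.1 to 51.6 CPM in the other 3 POMC-C451Af/f pools, and at 65.7, 58.5, 71.2 and 45.4 CPM in the controls, with a log2 fold change of −0.11 (standard error 0.148) that ran from −0.260 to −0.021 with single pools left out. Its 3 highest pools were the 3 highest in fibroblast genes.

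Smooth muscle genes had the largest median spread between pools of one genotype. *Acta2* (ENSMUSG00000035783.10), smooth muscle actin, was at 10.2, 17.6, 10.1 and 12.04 CPM in the POMC-C451Af/f pools and at 14.6, 12.3, 14.6 and 9.67 CPM in the controls. The highest pool was POMC-C451Af/f replicate 2, followed by control replicates 1 and 3. The means were 12.5 ± 3.51 and 12.8 ± 2.33 CPM (SD, n = 4 pools each), and the log2 fold change was −0.04 ± 0.184 (SE), with an unadjusted p of 0.842 and an adjusted p of 0.984 in edgeR. Without POMC-C451Af/f replicate 2 it was −0.252.

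*Tagln*, an actin-binding protein, was at 4.54, 11.4, 5.90 and 5.12 CPM in POMC-C451Af/f pools and 7.54, 6.12, 7.01 and 5.11 CPM in controls. The same 3 pools were the highest, and its log2 fold change of 0.06 (standard error 0.260) was −0.320 without POMC-C451Af/f replicate 2. *Myh11*, the smooth muscle myosin heavy chain, ranged from 10.1 CPM in control replicate 4 to 17.1 CPM in POMC-C451Af/f replicate 2, which was followed by control replicate 3 and POMC-C451Af/f replicate 4, with a log2 fold change of 0.14 that was −0.002 without POMC-C451Af/f replicate 2. The 3 pools highest in *Acta2* and *Tagln* were those in which the 9 leptomeningeal fibroblast genes summed to 225, 212 and 241 CPM, beside 81.0 to 117 CPM in the other 5. They were also the 3 highest in *Vtn*, *Cdh5* and *Ly6a*, so in 5 of the 34 genes, beside 5.09% of all genes, but not in *Myh11*. Without these 3 pools, a choice made after seeing the data, the median of the smooth muscle genes was −0.032 and that of the endothelial genes 0.062. The part of leptomeningeal tissue in the smooth muscle values was not tested.

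**Figure D4:**
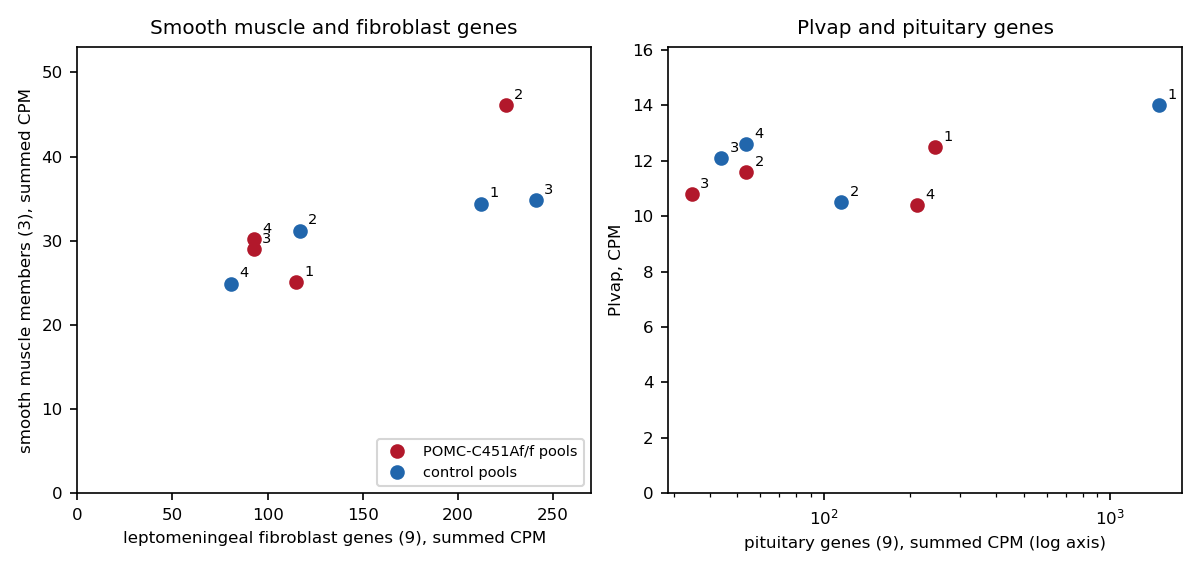
Left, summed CPM of the 3 smooth muscle genes against summed CPM of 9 leptomeningeal fibroblast genes; right, CPM of *Plvap* against summed CPM of 9 pituitary genes on a log axis; points are pools with their replicate numbers, red for POMC-C451Af/f and blue for control. POMC-C451Af/f replicate 2 is at 225 and 46.1 CPM on the left, and control replicate 1 is at 1474 and 13.97 CPM on the right.

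*Cspg5* (ENSMUSG00000032482.10) was at 226, 228, 225 and 237 CPM in the POMC-C451Af/f pools and at 229, 229, 231 and 229.9 CPM in the controls. All control pools lay inside the range of the POMC-C451Af/f pools. The means were 229 ± 5.51 and 229.6 ± 0.897 CPM (SD, n = 4 pools each), and the log2 fold change was −0.003 ± 0.0279 (SE), with an unadjusted p of 0.904 and an adjusted p of 0.992 in edgeR. It had the smallest spread within a genotype of the 34 genes.

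Levels between genes were compared as CPM per kb of merged exon, averaged over the 8 pools. *Slc2a1* was the highest at 42.9 CPM per kb, followed by *Vtn* at 28.6, *Itm2a* at 24.3, *Cldn5* at 23.4, *Cspg5* at 22.8, *Mfsd2a* at 20.3, *Rgs5* at 18.5 and *Ly6c1* at 17.8 CPM per kb. *Slc2a1* was above *Vtn* in all 8 pools, by 1.32 to 1.99 times. The order at the other 6 of these steps was not the same in every pool, the upper gene being the higher in 5 to 7 of the 8. The lowest levels were those of *Abcc9* at 1.26, *Emcn* at 0.988 and *Vwf* at 0.936 CPM per kb. *Plvap* was at 5.94 CPM per kb, 16th in the order, beside *Flt1* at 6.12 and *Acta2* at 5.75. Among the mural genes the order was *Vtn*, *Rgs5*, *Acta2*, *Pdgfrb* at 5.55, *Notch3* at 4.07, *Tagln* at 3.32, *Myh11* at 1.68, *Kcnj8* at 1.38 and *Abcc9*. *Acta2* was above *Pdgfrb* in only 3 of 8 pools, *Notch3* above *Tagln* and *Myh11* above *Kcnj8* in 7 and *Kcnj8* above *Abcc9* in 6, and by the longest coding transcript *Tagln* stood above *Notch3* and *Abcc9* above *Kcnj8*. The length used matters for some genes, since by the longest coding transcript *Ly6c1* stood 2nd, at 35.4 CPM per kb, and *Vwf* 32nd.

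**Figure D5:**
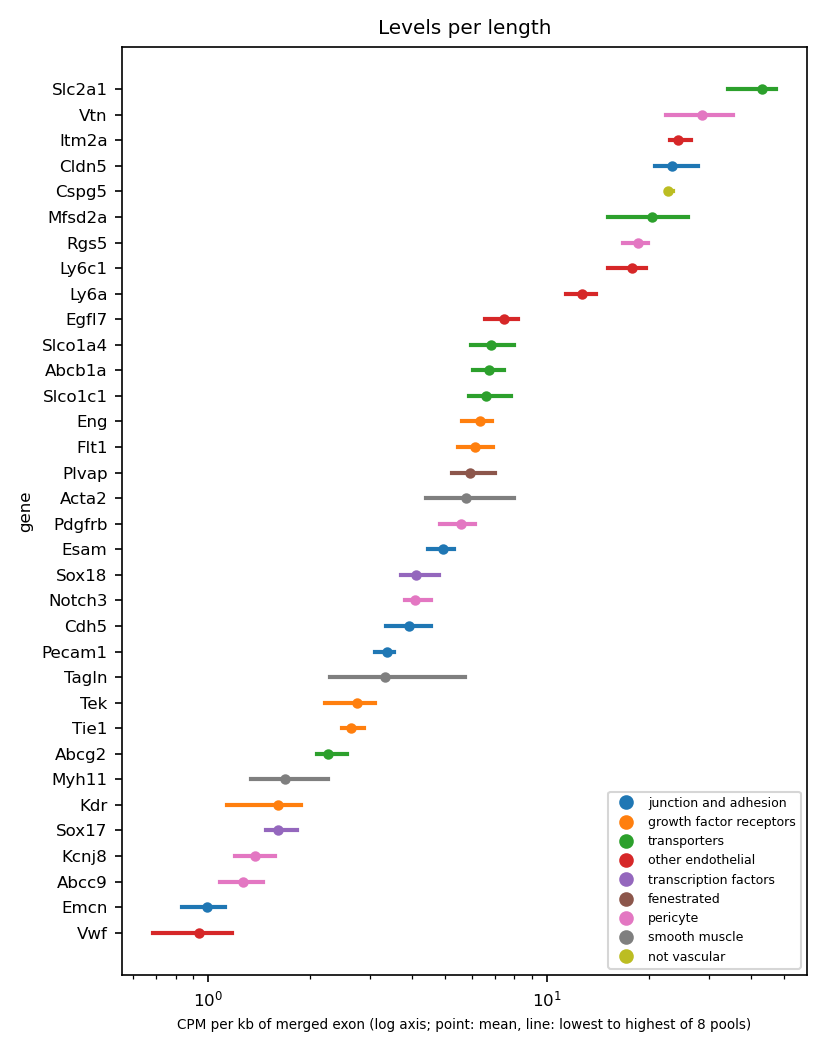
Mean CPM per kb of merged exon of the 34 genes on a log axis, with lines from the lowest to the highest of the 8 pools, colored by role. *Slc2a1* is at the top with 42.9 CPM per kb and *Vwf* at the bottom with 0.936 CPM per kb.

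The genes lie on 15 chromosomes of GRCm38 (GENCODE M21). On chromosome 6, *Slco1c1* and *Slco1a4* were 235 kb apart, and *Kcnj8* and *Abcc9*, which encode the parts of one channel, 16.2 kb apart, with 709 kb between *Slco1a4* and *Kcnj8*. The other neighbors within 2 Mb were *Tie1* and *Slc2a1* on chromosome 4, 619 kb apart, and *Ly6a* and *Ly6c1* on chromosome 15, 46.0 kb apart.

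Some of the genes share sequence with another gene at an identity of at least 90% over at least 100 bases and at least 20% of the transcript, so the division of reads between them is uncertain. *Ly6c1* shared 97.7% of its transcript with *Ly6c2*, which was estimated at a mean of 1.44 CPM, and 20% of the transcript of *Ly6a* was shared with *Ly6c1*. *Slco1a4* shared 34.5% with *Slco1a5*, at 0.375 CPM, and *Abcb1a* 25% with *Abcb1b*, at 2.35 CPM. *Tagln* shared 55% with *Gm48529*, at 1.43 CPM, and *Sox17* 24.8% with *Gm37587*, at 0.02 CPM.

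The wider pathways of the vessel wall were read from 8 lists of 103 further genes, of which 98 were tested. The 5 that were not were *Lcn2*, *Selp*, *Gpihbp1*, *Myocd* and *Actg2*. In edgeR, 0 of the 98 were called and 3 had an unadjusted p under 0.05, beside 5.10% of all genes. DESeq2 also called 0 and gave 6 at this p, beside 4.27% of the genes kept by the filter. With single pools left out the count at this p ran from 3 to 16 of the 98, the highest without POMC-C451Af/f replicate 2, where 9.38% of all genes had such a p, and with a block for the replicate number it was 9, beside 6.06% of all genes. Of the 98, 60 had a log2 fold change above 0 and 38 below, with a median of 0.03, and 56 were above 0 when scaled by total counts. Without control replicate 4 the median was 0.005, with 54 above 0, and without POMC-C451Af/f replicate 2 it was 0.014, with 53 above 0. The 10 further junction genes had 9 above 0, or 8 by total counts, and a median of 0.09, and the 17 genes of barrier formation through Wnt signaling had 13 above 0 and a median of 0.05. With single pools left out, these medians ran from 0.052 to 0.108 and from 0.027 to 0.070. Without POMC-C451Af/f replicates 3 and 4, the 2 pools highest in *Slc6a3* and left out after seeing the data, 8 of the 17 Wnt genes were above 0 and their median was −0.003, and 8 of the 10 junction genes with a median of 0.036. For 14 further transport genes the median was 0.01, and −0.002 by total counts, for 19 genes of vascular endothelial growth factor, angiopoietin, Notch and PDGF signaling 0.04 (0.006 without POMC-C451Af/f replicate 2), and for 12 tested arterial and venous genes 0.08, which was 0.008 without control replicate 4 and 0.142 without control replicate 3. The 6 tested genes of fenestrated or peripheral endothelium had a median of −0.02, the 11 further pericyte genes −0.07 and the 9 tested smooth muscle genes −0.04. With single pools left out these ran from −0.139 to 0.126, from −0.168 to −0.003 and from −0.146 to 0.018. The median of the fenestrated or peripheral genes was 0.126 without control replicate 1, the pool highest in pituitary genes. Without the 3 pools highest in fibroblast genes, also left out after seeing the data, it was 0.259, and that of the pericyte genes was 0.034. No direction is thus given for these 3 lists.

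The 3 were *Wnt7a*, *Bmx* and *Hey1*. *Wnt7a*, a ligand from neural cells that drives barrier formation, was at 12.9, 9.97, 10.8 and 12.6 CPM in the POMC-C451Af/f pools and at 10.02, 9.47, 9.67 and 9.75 CPM in the controls, with a log2 fold change of 0.25 (standard error 0.0868, unadjusted p = 0.0160 in edgeR). POMC-C451Af/f replicate 2 lay just inside the range of the controls and the other 3 were above it. *Bmx*, a kinase of arterial endothelium, was at 1.06, 1.59, 1.07 and 1.31 CPM in POMC-C451Af/f pools and at 0.868, 0.963, 1.002 and 0.609 CPM in controls, with a log2 fold change of 0.53 (standard error 0.209, unadjusted p = 0.0274 in edgeR). Its genotypes did not overlap, as in 2.78% of all genes, and its level was near 1 CPM. *Hey1*, a target of Notch signaling in arteries, was at 32.0, 27.7, 30.6 and 30.8 CPM in POMC-C451Af/f pools and at 26.9, 28.4, 28.7 and 27.8 CPM in controls, with a log2 fold change of 0.11 (standard error 0.0474, unadjusted p = 0.0373 in edgeR). POMC-C451Af/f replicate 2 was inside the range of the controls here too. Adjusted p was 0.878 for each of the 3 in edgeR's quasi-likelihood test. With single pools left out, the unadjusted p reached 0.0568 for *Wnt7a*, 0.0950 for *Bmx* and 0.118 for *Hey1*.

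The 2 highest values of *Tek*, *Flt1*, *Cldn5*, *Slco1c1*, *Notch3* and *Abcc9* were those of POMC-C451Af/f replicates 3 and 4, which were also the highest in *Slc6a3*. This order was found in 6 of the 34 genes and in 8.67% of all genes. Replicates 3 and 4 had the lowest value of 4 and 7 of the 34, for which no share over all genes was computed. All 8 genes of the midbrain dopamine list had log2 fold changes above 0, 7 of them with an unadjusted p under 0.05 in edgeR (*Slc6a3*, *Th*, *Ddc*, *Slc18a2*, *Pitx3*, *En1* and *Foxa2*). That count was 3 to 8 with single pools left out, the lowest without POMC-C451Af/f replicate 3, and 1 without replicates 3 and 4. The sum of the 8, led by *Th* and with none under 1 CPM in every pool, was 218, 169, 339 and 252 CPM in POMC-C451Af/f pools and 154, 129, 171 and 192 CPM in controls. Without POMC-C451Af/f replicates 3 and 4, a choice made after seeing the data, the log2 fold changes were 0.168 for *Tek* (unadjusted p = 0.134 in edgeR) and 0.040 for *Notch3* (unadjusted p = 0.367), and 1 of the 34 genes, *Egfl7*, had an unadjusted p under 0.05. POMC-C451Af/f replicates 3 and 4 held the highest values of *Tek* and *Notch3*, so smaller differences in these genes follow from leaving them out. Both pools were picked by *Slc6a3*, so the lower count of dopamine genes was built into the choice as well. The part of midbrain tissue in the levels of the vascular genes was not tested.

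Cells that touch the vessel wall were read from the same table. The 5 blood genes, led by *Hbb-bs* and with none under 1 CPM in every pool, summed to 329, 338, 545 and 177 CPM in POMC-C451Af/f pools and to 299, 229, 139 and 201 CPM in controls, and *Hba-a1* and *Hbb-bs* had unadjusted p-values of 0.0368 and 0.0321 in edgeR, which were 0.159 and 0.123 without POMC-C451Af/f replicate 3. Among 7 astrocyte genes, *Aqp4*, the water channel of the astrocyte endfeet that cover vessels, was at 145, 139, 163 and 141 CPM in POMC-C451Af/f pools and at 122, 118, 118 and 124 CPM in controls. The genotypes did not overlap in 3 of the 7, *Aqp4*, *Slc1a2* and *Aldh1l1*, and in 2.78% of all genes. The log2 fold change of *Aqp4* was 0.29 ± 0.0496 (SE), with an unadjusted p of 0.000146 and an adjusted p of 0.198 in edgeR. In DESeq2 its adjusted p was under 0.05, but its log2 fold change was under 0.5 there too. The 7 summed to 2790, 2748, 2758 and 2728 CPM against 2664, 2707, 2735 and 2746 CPM, led by *Slc1a2*, with *Slc1a2* above and *Aldh1l1* below 0 at an unadjusted p under 0.05, so the list did not move in one direction.

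The remaining lists are given by their sums. Choroid plexus genes (7, led by *Clic6*, with *Folr1* and *Slc4a5* under 1 CPM in every pool) ranged from 33.0 to 41.3 CPM, and tanycyte genes (8, led by *Col25a1*, which had an unadjusted p of 0.00723 in edgeR) from 185 to 214 CPM. Microglia and macrophage genes (7, led by *C1qa*) ranged from 110 to 128 CPM, with *Cx3cr1* and *P2ry12* above 0 at unadjusted p-values of 0.00468 and 0.0499 in edgeR. Oligodendrocyte genes (7, led by *Mbp*) summed to 4725, 4616, 5663 and 5226 CPM in POMC-C451Af/f pools and to 3986, 4678, 4748 and 4720 CPM in controls, the highest again in POMC-C451Af/f replicates 3 and 4. Neuron genes (6, led by *Snap25*) ranged from 2921 to 3482 CPM, with *Slc17a6* above 0 at an unadjusted p of 0.0479 in edgeR. Their highest sums, 3348 and 3482 CPM, were also those of POMC-C451Af/f replicates 3 and 4. The part of these cells in the levels of the vascular genes was not tested.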

How the data were processed

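The deposited table holds estimated counts per gene, which the authors made from hypothalamic poly(A) RNA of 8 pools with FastQC 0.12.1, Salmon 1.10 and R 4.4 on GRCm39, per the submitters' processing notes. Their deposited DESeq2 1.40 comparison was not used. Estimated counts were rounded to whole numbers, of which 32.9% were not whole before, filtered with filterByExpr (minimum count 10, minimum total count 15), scaled by TMM and tested in R 4.3.3 with edgeR 4.0.16, genotype being the only term. The procedure was also run on simulated data, and the results of that run are not reported here. Symbols and positions were matched by Ensembl identifier to GENCODE M21 on GRCm38 for 51424 of 55890 genes, and shared sequence was searched with blastn 2.17.0.

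The alternatives were DESeq2 1.42.0, edgeR scaled by the size factors of DESeq2 or by total counts, no filter, a block for the replicate number, each pool left out in turn, and 2 sets of pools left out that were chosen after seeing the data. The listed genes, the wider lists and the lists of other cells were chosen with earlier results of these data known. By rule, all listed genes are named, with pool values for *Cldn5*, *Slc2a1*, *Plvap*, *Pdgfrb*, *Rgs5*, *Acta2*, *Cspg5* and those with an unadjusted p under 0.05. In the wider lists, genes with an unadjusted p under 0.05 are named, and in the lists of other cells also the most abundant gene and those near 0. For the oligodendrocyte list, the results of single genes are not reported here. Pool values of *Mfsd2a*, *Slco1c1*, *Vtn* and *Tagln* and the names of the 4 genes called among all genes were added after their values were seen. No pair of pools of a genotype agreed within sampling noise (chi-square per degree of freedom at least 6.5).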

Additional observations from a re-analysis of the deposited data

Results flagged for a closer look

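Within each genotype, the highest and the lowest pool were compared with the other 3, and a pool was taken to stand apart where its gap to the nearest pool, divided by the whole range, was above Dixon's 95% critical value. Of 88 groups of 4 pools, 10 had such a pool, and chance gives about 1 in 20 groups for normally distributed values. The groups share the same pools and are not independent, so the 10 are not read as an excess over this rate. Control replicate 1 was apart in 4 of the measures: *Flt1* at 73.9 CPM (the other controls 81.2 to 81.6), *Sox18* at 7.79 CPM (6.01 to 6.14), the summed pituitary genes at 1474 CPM (43.9 to 115) and the summed oligodendrocyte genes at 3986 CPM (4678 to 4748). POMC-C451Af/f replicate 2 was apart in *Vtn* at 71.9 CPM (the other POMC-C451Af/f pools 49.1 to 51.6) and in the summed leptomeningeal fibroblast genes at 225 CPM (92.7 to 115). *Slco1a4* was at 38.9 CPM in POMC-C451Af/f replicate 1 (44.7 to 45.8 in the others) and *Sox17* at 7.23 CPM in POMC-C451Af/f replicate 4 (7.74 to 7.81). *Slco1c1* was at 36.1 CPM in control replicate 2 (30.5 to 31.3) and *Pdgfrb* at 26.5 CPM in control replicate 4 (32.5 to 33.6). The causes were not tested.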

How the results depend on the processing

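The number of listed genes called was 0 in edgeR and under each alternative, DESeq2 included. Leaving out each pool in turn kept the sign of 236 of 272 log2 fold changes, the other alternatives set at the start that of 166 of 170, and the 2 chosen after seeing the data that of 55 of 68. The number of all genes called, 4, was 13 with DESeq2, 7 without the 2 pools highest in *Slc6a3* and 4 to 5 with single pools left out. The number of listed genes with an unadjusted p under 0.05, 3, was 5 with DESeq2 (4.27% of the genes kept by the filter), 6 without a filter (4.68% of all genes), 1 without the 2 pools highest in *Slc6a3* (3.04%) and 2 to 7 with single pools left out (3.37% to 9.38%), the highest without POMC-C451Af/f replicate 2. With single pools left out, the median log2 fold change was −0.004 to 0.055 for endothelial, −0.061 to 0.012 for pericyte and −0.252 to 0.211 for smooth muscle genes.

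With a block for the replicate number, 2 of all genes passed and 7 of the listed genes had an unadjusted p under 0.05, beside 6.06% of all genes, and *Tagln* was at −0.011. The deviations of pools with the same number correlated at 0.141, −0.179, −0.109 and 0.243 for numbers 1 to 4. Correlations between pools with different numbers were not set beside these, so whether shared numbers mark pairs of pools is not settled.

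Signs reversed as follows, and the cause was not tested. *Ly6a* was at −0.006 and *Abcc9* at −0.002 with total counts, and *Ly6a* at −0.002 without a filter. Without the 3 pools highest in fibroblast genes, *Emcn* was at 0.009, *Abcb1a* −0.015, *Itm2a* 0.008, *Rgs5* 0.001, *Abcc9* −0.007, *Tagln* −0.119 and *Cspg5* 0.001. Without the 2 pools highest in *Slc6a3*, *Abcg2* was at 0.017, *Itm2a* 0.051, *Sox17* 0.016, *Abcc9* −0.139, *Vtn* 0.036 and *Acta2* 0.114. With single pools left out, the ranges that crossed 0 were −0.022 to 0.070 for *Esam*, −0.081 to 0.054 for *Emcn*, −0.091 to 0.048 for *Slco1a4*, −0.009 to 0.088 for *Abcb1a*, −0.088 to 0.041 for *Abcg2*, −0.047 to 0.051 for *Ly6a*, −0.051 to 0.028 for *Itm2a*, −0.045 to 0.060 for *Sox17*, −0.046 to 0.034 for *Rgs5*, −0.109 to 0.020 for *Kcnj8*, −0.063 to 0.074 for *Abcc9*, −0.252 to 0.049 for *Acta2*, −0.320 to 0.211 for *Tagln*, −0.002 to 0.246 for *Myh11* and −0.020 to 0.004 for *Cspg5*. The ranges that kept their sign were −0.146 to −0.002 for *Cdh5*, 0.055 to 0.245 for *Kdr*, −0.186 to −0.032 for *Slc2a1*, 0.016 to 0.120 for *Egfl7*, 0.008 to 0.145 for *Sox18*, −0.175 to −0.060 for *Ly6c1*, 0.066 to 0.142 for *Flt1*, 0.036 to 0.090 for *Pecam1*, 0.050 to 0.117 for *Tie1*, 0.106 to 0.221 for *Slco1c1*, −0.388 to −0.173 for *Mfsd2a*, 0.143 to 0.324 for *Vwf*, −0.167 to −0.056 for *Pdgfrb*, −0.185 to −0.047 for *Plvap*, 0.065 to 0.178 for *Cldn5*, 0.161 to 0.282 for *Tek*, 0.094 to 0.159 for *Eng*, 0.101 to 0.167 for *Notch3* and −0.260 to −0.021 for *Vtn*.

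With 4 pools a genotype, standard errors on the log2 scale had a median of 0.0779 over the listed genes and reached 0.260 for *Tagln*, which limits the differences that could be called. Pools of 2 animals hide the spread between animals, and the dissected tissue is mixed. For genes near 1 CPM, such as *Bmx*, the part of low counts in the standard error was not tested.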
